A study of Mus musculus with 8 samples.

Results

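Matrix metalloproteinases, 3 of their TIMP inhibitors and 2 related ADAM proteases were followed in cultured mouse hematopoietic stem and progenitor cells (HSPCs) kept with or without malonyl-CoA. The 10 genes were Mmp14, Mmp25, Mmp8, Mmp9 and Mmp19, the inhibitors Timp1, Timp2 and Timp3, and the proteases Adam8 and Adam17, out of 48709 gene identifiers in the count files. All 10 were matched by Ensembl identifier to a symbol in the GENCODE M21 annotation of GRCm38. The set was selected on measured values of these libraries, namely that the counts of Mmp14 separated the groups. The values of the comparison between malonyl-CoA and control are therefore given for these genes as a description, without a test of their own.

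The 4 malonyl-CoA libraries came from C57Bl/6J bone marrow cells without lineage markers and with Sca1 and cKit, cultured for 7 days with 100 µM malonyl-CoA. The 4 control libraries came from the same kind of cells cultured for 7 days without it. The medium of both groups held no serum and was supplied with the cytokines SCF (100 ng/ml) and Flt3L (2 ng/ml). RNA was taken from all progeny of 10000 seeded cells. The libraries of both groups are numbered 1, 3, 4 and 5, and the labels do not say whether a number stands for an animal, a pool or a culture.

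Matrix metalloproteinases are zinc-dependent endopeptidases that are made as inactive proforms and cut matrix and cell surface proteins. TIMPs bind the active site and block it. ADAM proteases of the same metalloproteinase superfamily release membrane proteins such as cytokines and their receptors from the cell surface. In mouse bone marrow, MMP-9 is known for the release of Kit ligand, and MMP-8, MMP-9 and MMP-25 are proteases of neutrophils.

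Counts assigned to genes ranged from 17492085 to 22079844 per library. Malonyl-CoA 4 stood apart in its share of reads outside genes, at 2.94% against 1.11% to 1.56% in the other 7 libraries. Kit averaged 244 ± 51.9 TMM-scaled CPM (counts relative to library size) with malonyl-CoA and 270 ± 36.7 CPM in control, and Mpo, a granule enzyme of neutrophil precursors, 9165 ± 1470 and 9386 ± 2425 CPM (SD, n = 4 each). The cultures thus carried progenitor markers beside abundant neutrophil precursor transcripts. In bulk RNA, fewer cells of a type and less RNA per cell cannot be told apart.

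Across all 8 libraries the 10 genes fell into an abundant, a middle and a scarce set, compared here as CPM per kilobase of exon. Mmp8, the collagenase of neutrophil granules, was the most abundant, at 26.6 ± 2.86 with malonyl-CoA and 30.9 ± 3.74 in control (CPM per kilobase, SD, n = 4 each). Adam17, the main sheddase of TNF, followed at 20.2 ± 2.18 and 17.7 ± 2.35 CPM per kilobase. Timp3, an inhibitor that stays bound to the extracellular matrix and blocks ADAM17 as well as MMPs, stood at 14.2 ± 2.22 and 14.9 ± 2.86 CPM per kilobase. Mmp19, a secreted MMP of wide tissue distribution, came next at 5.58 ± 1.02 and 5.33 ± 0.762 CPM per kilobase.

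Timp2, Adam8 and Mmp14 formed the middle set, and Timp1, Mmp25 and Mmp9 the scarce one, with at most 0.384 CPM per kilobase in any library. Differences between neighbours in this order were tested within libraries by an exact sign-flip permutation test over the 8 libraries, two-sided, with adjustment over the 9 neighbour pairs. Each of the 4 steps from Mmp8 through Adam17, Timp3 and Mmp19 to Timp2 held in 8 of 8 libraries (exact permutation p = 0.00781, the smallest possible, adjusted p = 0.0176). Their mean log2 differences per kilobase were 0.60, 0.39, 1.41 and 1.16 in that order. With the 0.5 that the test adds to each count before division by length, Mmp14 lay above Timp1 in 7 of 8 libraries, by a mean of 2.97 on the log2 scale (exact permutation p = 0.0156, adjusted p = 0.0281). Without the added 0.5 it lay above in every library, in control 1 at 0.335 against 0.321 CPM per kilobase. As this step contains Mmp14, its p draws on the values that chose the genes, and nothing is read from it. In the controls alone, with the 0.5 added, Mmp14 lay above Timp1 in 3 of 4 libraries (mean log2 difference 2.21 ± 2.18, SD, n = 4). Timp1 had 0 to 7 reads per library.

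The remaining neighbours did not differ beyond their spread over the 8 libraries. Timp2 exceeded Adam8 in 5 of 8 libraries (adjusted exact permutation p = 0.344) and Adam8 exceeded Mmp14 in 4 of 8 (0.344), while Timp1, Mmp25 and Mmp9 could not be ordered (0.341 for both steps). This hid opposite orders in the groups. Adam8 lay above Timp2 in 3 of 4 malonyl-CoA libraries (mean log2 difference 0.29 ± 0.40, SD, n = 4), and Timp2 above Adam8 in 4 of 4 controls (0.90 ± 0.58). Mmp14 lay above Adam8 in 3 of 4 malonyl-CoA libraries and below it in 3 of 4 controls. As this swap contains Mmp14, it repeats the separation that chose the genes. With 4 libraries the smallest exact permutation p is 0.125, so these orders are a description. The order and its direction were read from the same libraries as the test. It also depends on the length used: per kilobase of the longest annotated transcript, Adam17 came before Mmp8, Mmp14 came before Timp2 and Adam8, and 2 neighbour pairs differed in place of 5.

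**Figure D1:**
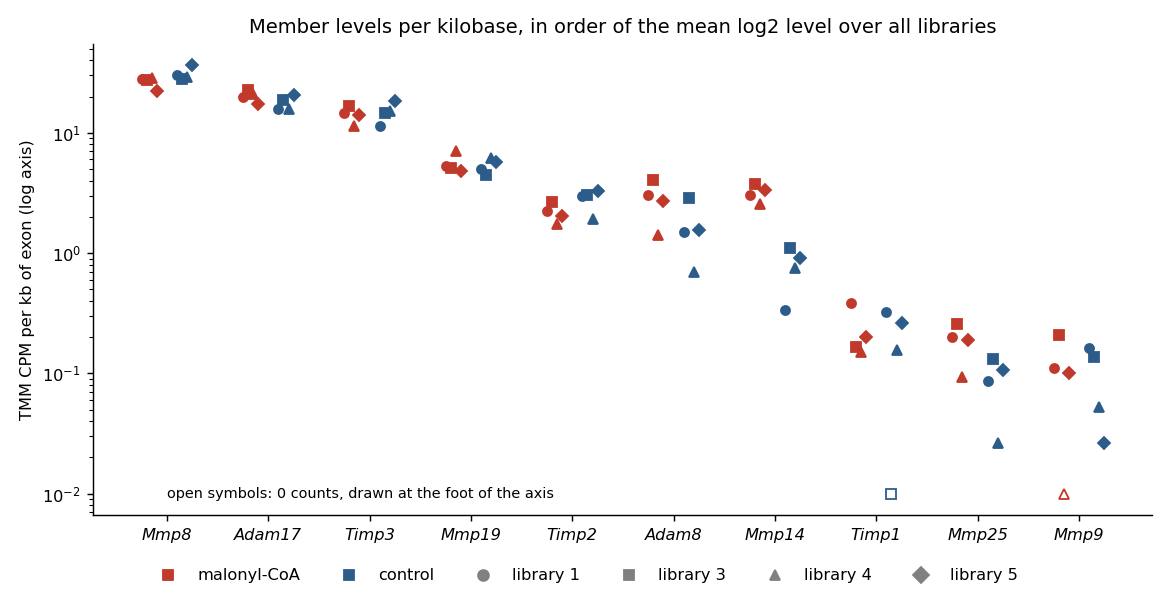
TMM CPM per kilobase of exon on a log axis for the 10 genes in 4 malonyl-CoA libraries (red, left) and 4 control libraries (blue, right), with 1 symbol for each library number and open symbols at the foot for libraries with 0 counts. Mmp8, Adam17 and Timp3 lie highest in both groups, Timp1, Mmp25 and Mmp9 lowest, and Mmp14 shows the widest gap between the groups.

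Mmp14, also called MT1-MMP, is anchored in the plasma membrane, where it cuts collagen and, in a complex with TIMP-2, activates the proform of MMP-2. The gene (ENSMUSG00000000957) lies on the plus strand of GRCm38 chromosome 14 from 54431612 to 54445364. It stood at 18.3, 22.1, 15.2 and 20.04 CPM in malonyl-CoA 1, 3, 4 and 5, against 2.00, 6.51, 4.52 and 5.45 CPM in controls 1, 3, 4 and 5. Every malonyl-CoA library lay above every control, with control 1 the lowest of all. These values rest on 339 to 453 reads per malonyl-CoA library and 35 to 121 per control. The mean was 18.9 ± 2.92 CPM with malonyl-CoA and 4.62 ± 1.93 CPM in control (SD, n = 4 each), a log2 fold change of 2.03 with a standard error of 0.29. This is the separation for which the genes were chosen.

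Leaving out any 1 library, or both libraries of a number, kept the log2 fold change of Mmp14 between 1.79 and 2.23. By CPM per kilobase it took rank 5 of the 10 genes with malonyl-CoA, at 3.17 ± 0.491, and rank 7 in control, at 0.775 ± 0.323 (SD, n = 4 each). Mmp14 made up 9.01% ± 1.89 of the summed per-kilobase level of the 5 MMP genes with malonyl-CoA and 2.10% ± 0.947 in control. Mmp8 held 74.6% ± 1.56 and 83.0% ± 1.86 of that sum (SD, n = 4 each).

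**Figure D2:**
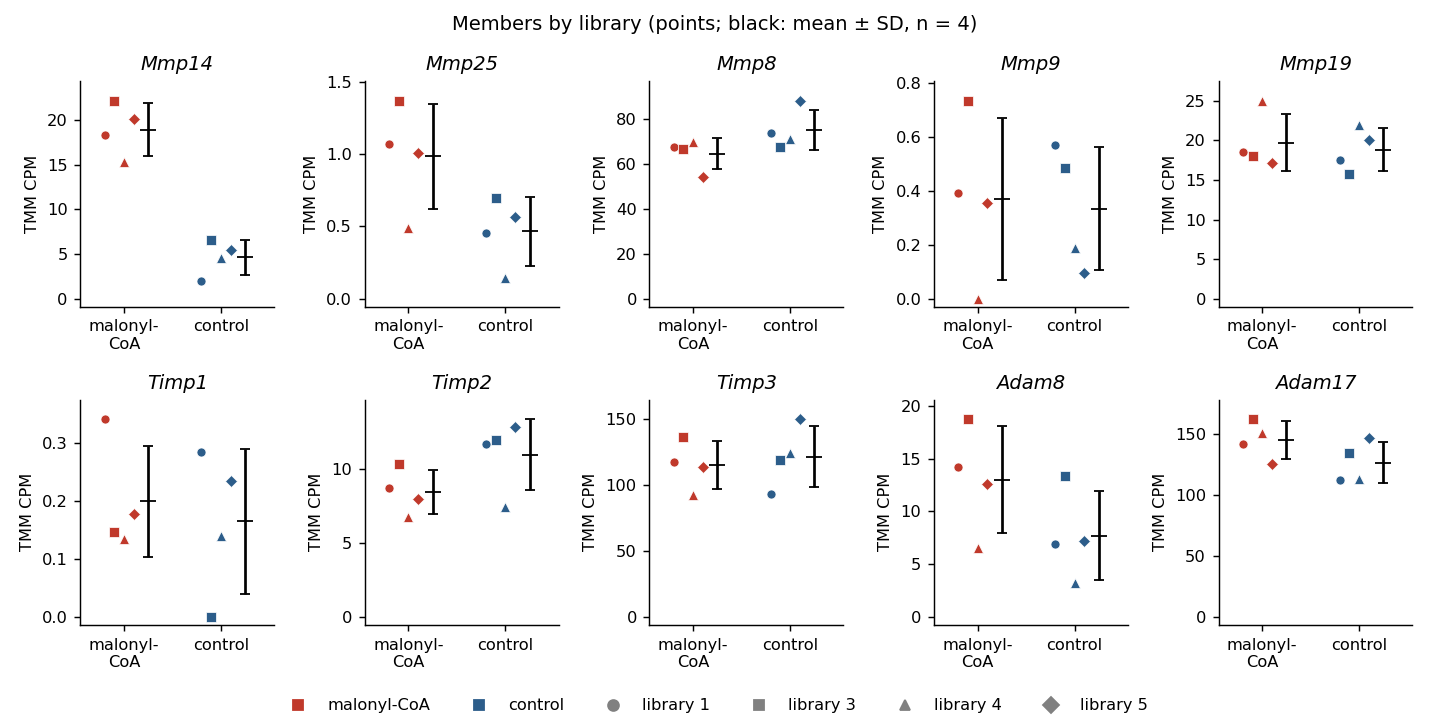
TMM CPM of each of the 10 genes in the 4 malonyl-CoA libraries (red, left) and the 4 control libraries (blue, right), with 1 symbol for each library number and the mean ± SD (n = 4) in black. The malonyl-CoA libraries lie at 15.2 to 22.1 CPM for Mmp14, all above the controls, and the groups overlap for the other 9 genes.

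The bases just upstream of 4 of these genes are shown because they are the 2 genes with the largest fold changes, the protease Adam8, and the most abundant member for contrast. They are RefSeq sequences of GRCm38.p6. RefSeq's table held 8 of the 10 genes, and 6 of these had bases left outside annotated exons. All are written 5′ to 3′ toward the gene and stop before the first annotated exon base. Capitals mark matches on either strand to the motif letters of Sp1 (GGGCGG), Egr1 (GCGNGGGCG), PU.1 (GAGGAAG) and C/EBP (TTGCNNAA), with N for any base, or to the NF-kB consensus. The letters of AP-1 and of the TATA box (TATAAA) were searched too. They are Mmp14 at chr14:54431348-54431597 (plus strand), Mmp25 at chr17:23645278-23645519 (minus strand), Adam8 at chr7:139992563-139992812 (minus strand) and Mmp8 at chr9:7558179-7558428 (plus strand).
Mmp14: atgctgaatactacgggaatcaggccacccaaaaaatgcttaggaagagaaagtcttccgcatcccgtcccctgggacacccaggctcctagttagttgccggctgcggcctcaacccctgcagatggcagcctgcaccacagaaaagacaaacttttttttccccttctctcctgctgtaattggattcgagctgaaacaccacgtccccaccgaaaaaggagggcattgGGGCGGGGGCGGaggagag
Mmp25: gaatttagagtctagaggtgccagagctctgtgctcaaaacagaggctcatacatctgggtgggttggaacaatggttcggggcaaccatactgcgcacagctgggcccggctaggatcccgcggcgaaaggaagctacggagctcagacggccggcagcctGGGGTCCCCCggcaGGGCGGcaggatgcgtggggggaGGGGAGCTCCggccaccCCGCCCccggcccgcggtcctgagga
Adam8: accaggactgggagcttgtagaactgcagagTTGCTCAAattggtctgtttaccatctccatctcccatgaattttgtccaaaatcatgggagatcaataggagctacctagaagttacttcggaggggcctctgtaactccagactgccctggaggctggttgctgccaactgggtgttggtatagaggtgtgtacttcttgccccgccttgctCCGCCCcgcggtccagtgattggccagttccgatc
Mmp8: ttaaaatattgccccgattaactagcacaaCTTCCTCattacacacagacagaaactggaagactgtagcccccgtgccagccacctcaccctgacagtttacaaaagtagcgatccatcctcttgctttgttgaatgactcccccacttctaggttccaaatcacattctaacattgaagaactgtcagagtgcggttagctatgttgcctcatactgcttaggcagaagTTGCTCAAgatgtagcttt

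Upstream of Mmp14, a run of 12 bases held 2 Sp1 matches side by side and an Egr1 match that overlaps both, from 19 to 8 bases counted back from the last printed base. Of 32817 promoter windows of 250 bases, 32.7% held the Sp1 letters and 4.7% the Egr1 letters. The Mmp25 window of 242 bases held 2 Sp1 and 2 NF-kB matches, where 31.6% and 7.0% of windows of that length hold at least 1. Adam8 and Mmp8 each held 1 C/EBP match (9.6% of windows), with 1 Sp1 match for Adam8 and 1 PU.1 match for Mmp8 (10.6% of windows). None of the 4 windows held the AP-1 letters or the TATA letters, which describes these windows only.

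Mmp25, a membrane-type MMP held by a lipid anchor and known from neutrophils, was near the limit of detection (ENSMUSG00000023903, chromosome 17, 23628311 to 23645277, minus strand). It had 22, 28, 11 and 17 reads in malonyl-CoA 1, 3, 4 and 5, against 8, 13, 3 and 12 reads in controls 1, 3, 4 and 5. The groups overlapped, since malonyl-CoA 4 lay below controls 3 and 5 at 0.491 CPM. The mean was 0.984 ± 0.364 CPM with malonyl-CoA and 0.465 ± 0.238 CPM in control (SD, n = 4 each), and the log2 fold change 1.08 (SE 0.44). The filter on low counts needed 4 libraries of either group over its cutoff, and Mmp25 had 4 malonyl-CoA and 2 control libraries over it. Its malonyl-CoA libraries alone met this number and its controls alone did not.

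The secreted MMPs of the set, Mmp8, Mmp19 and Mmp9, were nearly level or barely present. Mmp8 (ENSMUSG00000005800, chromosome 9, 7558456 to 7568485) had 67.4, 66.6, 69.8 and 54.3 CPM in malonyl-CoA 1, 3, 4 and 5, against 73.8, 67.3, 70.9 and 88.0 CPM in controls 1, 3, 4 and 5. Only malonyl-CoA 5 and control 5 lay far from the others, and the log2 fold change was -0.22 (SE 0.13). It was -0.14 without malonyl-CoA 5, -0.13 without control 5 and -0.05 without both. Of 10 genes for neutrophil granule and alarmin proteins, 9 had a negative and 1 (Lcn2, 0.30) a positive log2 fold change, with a median of -0.46 beside 0.02 over all 12696 genes tested. Among the abundant genes of the list, Mpo and Prtn3 had log2 fold changes of -0.03 each, Elane -0.36 (SE 0.24) and Ctsg -0.17 (SE 0.15). S100a8 averaged 352 ± 130 CPM with malonyl-CoA and 733 ± 400 CPM in control (SD, n = 4 each), and its log2 fold change of -1.06 (SE 0.39) was the most negative of the 10. Camp averaged 9.66 ± 4.29 CPM with malonyl-CoA and 17.3 ± 4.27 CPM in control, Ngp 38.3 ± 13.5 and 64.4 ± 18.1 CPM, and S100a9 272 ± 78.0 and 456 ± 202 CPM (SD, n = 4 each). None of the 10 passed edgeR's quasi-likelihood test (adjusted p = 0.502 for S100a8, Camp and Ngp and 0.515 for S100a9). At an unadjusted p under 0.05 in that test 4 were lower and 0 higher, beside 4.1% and 5.43% of all genes. S100a8 alone passed with the library number as a block (edgeR adjusted p = 0.0464), where 0.221% of all genes passed as lower. The summed level of 9 neutrophil precursor markers spanned 12760 to 16770 CPM with malonyl-CoA and 10910 to 19680 CPM in control, with 1 marker higher and 8 lower and none under 1 CPM in every library. The part of these cells in the value of Mmp8 was not tested.

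Mmp19 (ENSMUSG00000025355, chromosome 10, 128790910 to 128800824) averaged 19.7 ± 3.59 CPM with malonyl-CoA and 18.8 ± 2.69 CPM in control (SD, n = 4 each). Its highest library was the one numbered 4 in both groups, at 25.0 CPM in malonyl-CoA 4 and 21.9 CPM in control 4. The log2 fold change of 0.07 (SE 0.17) turned to -0.08 without malonyl-CoA 4 and to -0.01 without control 3. Of its exon bases 22.3% are also exonic on the other strand in Tmem198b. The kit kept strand, but the setting of the read counter is not given in the sources used here, so the count carries this uncertainty.

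Mmp9, the gelatinase of neutrophils and activated macrophages, was close to absent (ENSMUSG00000017737, chromosome 2, 164940780 to 164955850). It had 8, 15, 0 and 6 reads in malonyl-CoA 1, 3, 4 and 5, against 10, 9, 4 and 2 reads in controls 1, 3, 4 and 5. The 0 reads of malonyl-CoA 4 allow up to 0.134 CPM, taking 3 reads as the limit. Mmp9 did not pass the filter on low counts, and no difference was detectable at this depth.

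Among the inhibitors Timp3 dominated and Timp1 was nearly silent. Timp3 made up 85.6% ± 0.661 of the summed per-kilobase level of the 3 TIMP genes with malonyl-CoA and 83.1% ± 4.34 in control (SD, n = 4 each). Timp3 (ENSMUSG00000020044, chromosome 10, 86300372 to 86349506) had 118, 136, 92.5 and 114 CPM in malonyl-CoA 1, 3, 4 and 5, against 93.2, 119, 124 and 150 CPM in controls 1, 3, 4 and 5. The groups covered nearly the same range, and the log2 fold change was -0.08 (SE 0.17), at 0.01 without malonyl-CoA 4 and 0.04 without control 5. The gene lies inside Syn3 on the opposite strand, and 21.3% of its exon bases are also exonic there. Syn3 itself had 6 to 11 reads per malonyl-CoA library and 7 to 18 per control, against 1634 or more for Timp3 in every library.

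Timp2, both an inhibitor and the partner of Mmp14 in the activation of MMP-2, was lower on average with malonyl-CoA (ENSMUSG00000017466, chromosome 11, 118301069 to 118355740). It stood at 8.72, 10.3, 6.74 and 7.92 CPM in malonyl-CoA 1, 3, 4 and 5, against 11.6, 11.9, 7.41 and 12.8 CPM in controls 1, 3, 4 and 5. In both groups the library numbered 4 was lowest, and the groups overlapped through control 4. The log2 fold change was -0.37 (SE 0.21).

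Timp1, an inducible secreted inhibitor, had 7, 3, 3 and 3 reads in malonyl-CoA 1, 3, 4 and 5, against 5, 0, 3 and 5 reads in controls 1, 3, 4 and 5. The gene (ENSMUSG00000001131, chromosome X, 20870166 to 20874735) sits inside Syn1 on the opposite strand without shared exon bases. It did not pass the filter, and 0 reads in control 3 allow up to 0.161 CPM.

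The ratio of a protease to its inhibitor within a library does not depend on scaling. Mmp14 had 2.10, 2.15, 2.26 and 2.53 reads for each read of Timp2 in malonyl-CoA 1, 3, 4 and 5, against 0.172, 0.548, 0.610 and 0.427 in controls 1, 3, 4 and 5. All malonyl-CoA libraries had more Mmp14 than Timp2 reads and all controls fewer. The malonyl-CoA ratios lay within a narrow range, and control 1 was the lowest by far. On the log2 scale the ratio averaged 1.17 ± 0.12 with malonyl-CoA and -1.33 ± 0.82 in control (SD, n = 4 each), a difference of 2.501, and 2.10 to 2.71 when any 1 library was left out. As this ratio contains Mmp14, it repeats the separation that chose the genes.

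In read counts not divided by length, Adam17 and Timp3 stayed close to parity, while per kilobase Adam17 lay above in 8 of 8 libraries. Their log2 ratio averaged 0.34 ± 0.25 with malonyl-CoA and 0.07 ± 0.19 in control (SD, n = 4 each), and the groups overlapped. Malonyl-CoA 4 stood highest at 0.70, and the other 7 libraries lay between -0.14 and 0.27. Ratios of Mmp9 to Timp1 and to Mmp8 rest on 0 to 15 reads of Mmp9 per library and changed sign when single libraries were left out.

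**Figure D3:**
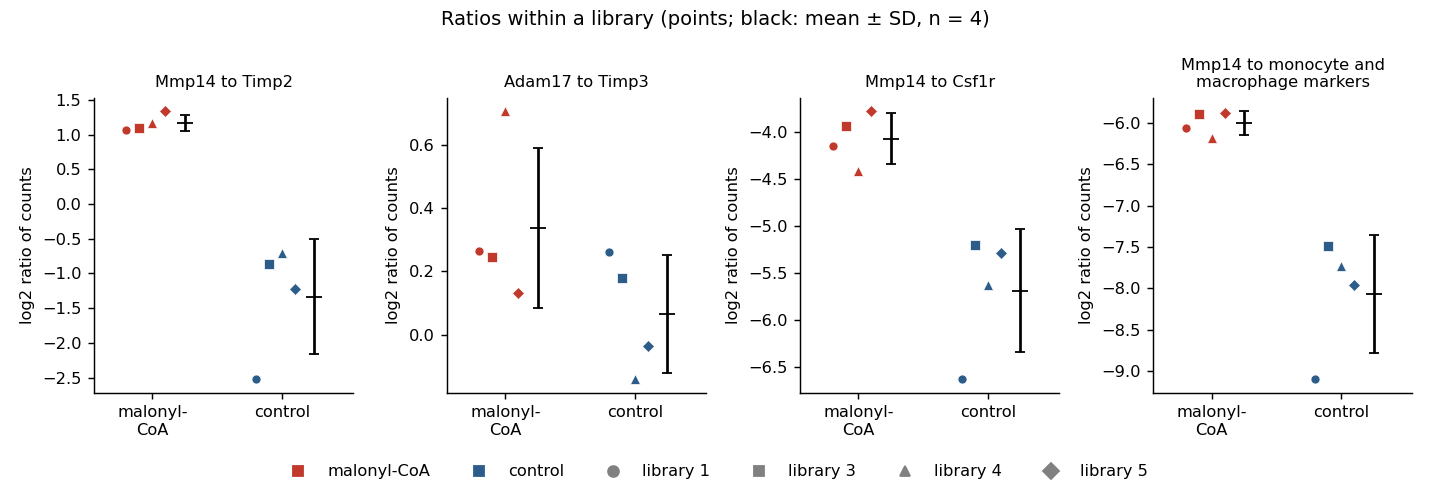
Log2 ratio of read counts within each library for Mmp14 to Timp2, Adam17 to Timp3, Mmp14 to Csf1r and Mmp14 to 9 summed monocyte and macrophage markers, in 4 malonyl-CoA libraries (red, left) and 4 control libraries (blue, right), with the mean ± SD (n = 4) in black. The groups do not overlap in the 3 ratios that contain Mmp14, and they overlap for Adam17 to Timp3.

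Adam8, a protease of myeloid cells that cuts adhesion molecules, varied widely within both groups (ENSMUSG00000025473, chromosome 7, 139978932 to 139992562). It had 14.2, 18.7, 6.52 and 12.6 CPM in malonyl-CoA 1, 3, 4 and 5, against 6.90, 13.4, 3.21 and 7.23 CPM in controls 1, 3, 4 and 5. The libraries numbered 3 were highest and those numbered 4 lowest in both groups, and the groups overlapped. The mean was 13.0 ± 5.04 CPM with malonyl-CoA and 7.68 ± 4.22 CPM in control (SD, n = 4 each), with a log2 fold change of 0.76 (SE 0.42).

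Mmp12 and some of the marker sums set apart the libraries lowest in Adam8. The 3 libraries lowest in Adam8 (malonyl-CoA 4, control 4 and control 1) were also the 3 lowest in Mmp12, the macrophage elastase, at 0.536, 0.233 and 1.71 CPM against 38.5 CPM or more in the other 5. They were the 3 lowest in the summed level of 8 dendritic cell markers as well, at 380, 325 and 346 CPM. The same 3 were lowest in the monocyte and macrophage sum, at 1104, 963 and 1113 CPM, and in the megakaryocyte sum, at 607, 850 and 819 CPM. In the sum of 9 neutrophil precursor markers they were the 3 highest, at 16770, 18970 and 19680 CPM against 15890 CPM or less in the other 5. They were neither the 3 lowest nor the 3 highest in the stem and progenitor, mast cell and basophil, stromal and endothelial, erythroid and lymphoid sums. Control 5, at 7.23 CPM of Adam8 next to control 1 at 6.90, had the lowest neutrophil precursor sum (10910 CPM). Its monocyte and macrophage sum was the highest (1357 CPM). The dendritic sum spanned 380 to 596 CPM with malonyl-CoA and 325 to 481 CPM in control, with 6 of the 8 markers higher and 2 lower, and no marker under 1 CPM in every library. The part of these cells in the level of Adam8 was not tested.

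**Figure D4:**
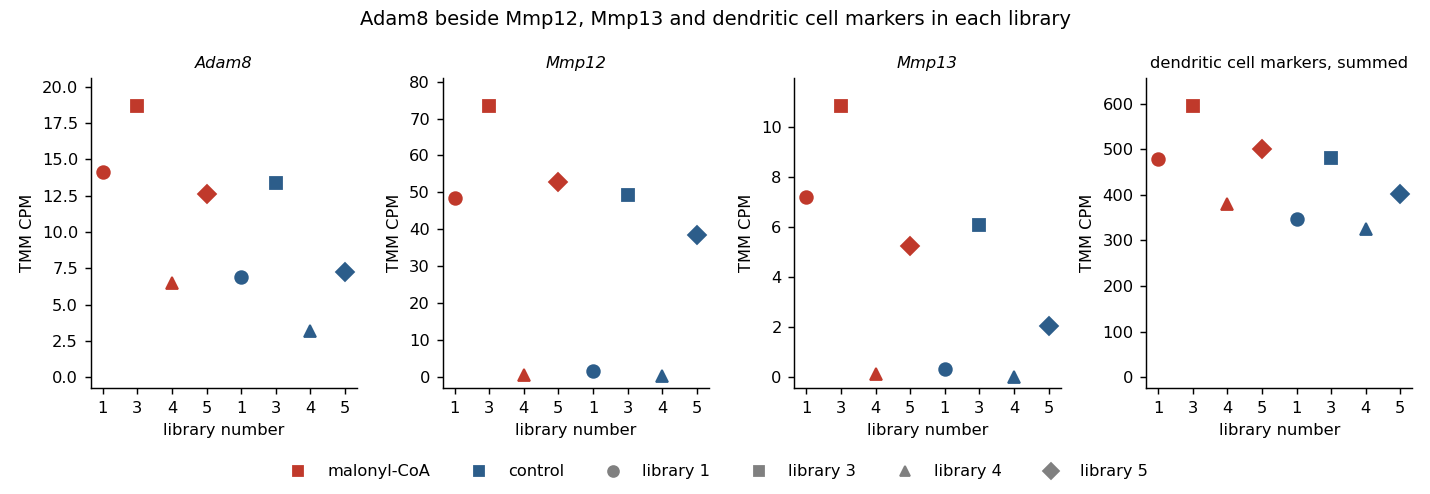
TMM CPM of Adam8, Mmp12, Mmp13 and the sum of 8 dendritic cell markers in each library, with malonyl-CoA libraries in red on the left and controls in blue on the right. Malonyl-CoA 4, control 1 and control 4 are the lowest 3 in every panel.

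Adam17 (ENSMUSG00000052593, chromosome 12, 21323509 to 21373632) had 142, 162, 151 and 125 CPM in malonyl-CoA 1, 3, 4 and 5, against 112, 134, 113 and 146 CPM in controls 1, 3, 4 and 5. The ranges overlapped, and the log2 fold change was 0.20 (SE 0.13). Of 8 genes that carry ADAM17 to the surface or pair with ADAM10, 6 were tested, 2 higher and 4 lower, with a median log2 fold change of -0.06. Rhbdf2, which encodes iRhom2, the escort of ADAM17 in immune cells, averaged 33.9 ± 0.780 CPM with malonyl-CoA and 22.0 ± 3.31 CPM in control (SD, n = 4 each), with all malonyl-CoA libraries above the controls. Its log2 fold change of 0.62 (SE 0.13) did not pass edgeR's quasi-likelihood test (adjusted p = 0.352).

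Of the 10 genes, 8 passed the filter on low counts, and 5 of these had a positive and 3 a negative log2 fold change. At an adjusted p under 0.05 in edgeR's quasi-likelihood test, 0 of the 8 were higher and 0 lower, and so were 0 of all 12696 genes (0% in each direction). At an unadjusted p under 0.05, Mmp14 and Mmp25 were higher (690 genes, 5.43% of all) and 0 were lower (4.1% of all). DESeq2 called Mmp14 higher, as it did 0.469% of its 13871 genes, with 0.123% lower, and limma-voom called 0. A fit with the library number as a block called Mmp14 higher too, beside 1.13% of genes higher and 0.221% lower, and with GC correction added it called 0 of the 8. Every malonyl-CoA library lay above every control for 1 of the 8, Mmp14 (3.21% of all genes), and below for 0 (2.93%). As this comparison chose the genes, nothing is read from these counts.

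Genes of the wider families and of their regulation were taken from 10 lists of 120 genes in all, of which 72 were tested. In edgeR's quasi-likelihood test 0 passed in either direction at an adjusted p under 0.05, while 14 were higher and 5 lower at an unadjusted p under 0.05, beside 5.43% and 4.1% of all genes. DESeq2 called Csf1r, Rhbdf2, Lrp1 and Tnf higher and 0 lower, beside 0.469% and 0.123% of its genes. The fit with the library number as a block called Csf1r, Icam1 and Lrp1 higher and S100a8 lower, beside 1.13% and 0.221% of genes.

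Of 18 other MMP genes 7 were tested, 4 higher and 3 lower, and 5 had no read in any library. Mmp2, the gelatinase that MMP-14 activates, averaged 2.31 ± 0.519 CPM with malonyl-CoA and 1.21 ± 0.398 CPM in control (log2 fold change 0.95, SE 0.28, edgeR adjusted p = 0.399). Mmp12 averaged 43.8 ± 30.9 CPM with malonyl-CoA and 22.5 ± 25.2 CPM in control, and the collagenase gene Mmp13 5.86 ± 4.47 and 2.12 ± 2.79 CPM (SD, n = 4 each). In both genes malonyl-CoA 4 and controls 1 and 4 lay far below the other 5 libraries. The other MMP inhibitors were scarce, with Timp4, A2m and Pzp at 0 reads in every library and the membrane-bound inhibitor gene Reck at 1.92 ± 0.348 and 2.10 ± 0.541 CPM.

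Of 10 other ADAM genes 6 were tested, 4 higher and 2 lower. Adam10, the sheddase of Notch receptors, exceeded Adam17 in level, at 57.2 CPM per kilobase with malonyl-CoA and 63.5 in control on average. It lay lower in every malonyl-CoA library than in any control, by a log2 fold change of -0.15 (SE 0.10, edgeR adjusted p = 0.545). Adam9 lay higher in every malonyl-CoA library, at 56.5 ± 4.70 CPM and 44.2 ± 2.71 CPM in control (SD, n = 4 each). This gave a log2 fold change of 0.36 with an SE of 0.11 (edgeR adjusted p = 0.419). Among 18 ADAMTS genes 4 were tested, 3 higher and 1 lower, and the most abundant was Adamts10 at 12.0 ± 6.01 CPM with malonyl-CoA and 7.99 ± 3.08 CPM in control.

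**Figure D5:**
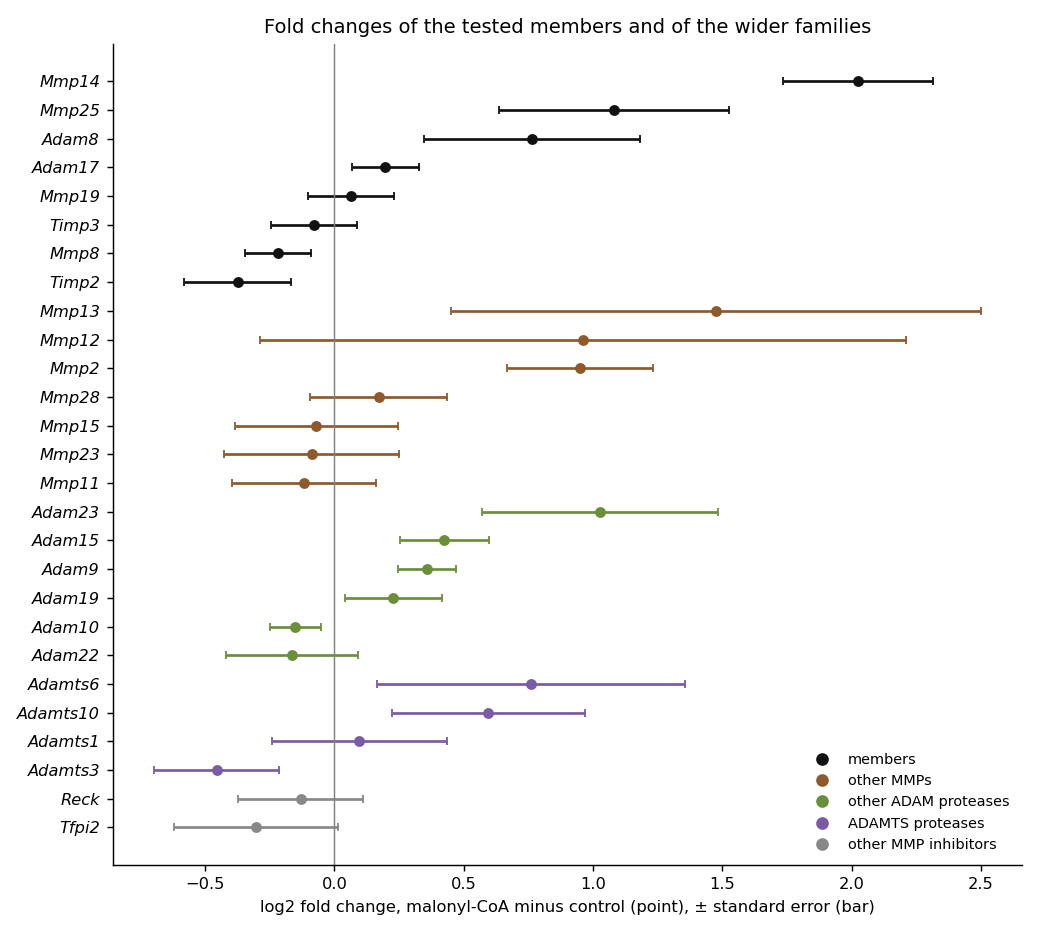
Log2 fold change, malonyl-CoA minus control, with its standard error as a bar, for the 8 tested genes of the set (black) and the tested genes of 4 wider lists (colours). Mmp14 lies highest at 2.03 (SE 0.29), while Mmp13 and Mmp12 carry the longest bars.

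Furin, which removes the propeptide of MMP-14, stood at 44.2, 54.3, 69.5 and 34.5 CPM in malonyl-CoA 1, 3, 4 and 5, against 19.5, 33.3, 44.0 and 25.9 CPM in controls 1, 3, 4 and 5. The groups overlapped in this gene (log2 fold change 0.72, SE 0.28, edgeR adjusted p = 0.502). Of 13 activators and plasminogen genes 7 were tested, 5 higher and 2 lower, and the urokinase receptor gene Plaur averaged 54.0 ± 8.86 CPM with malonyl-CoA and 39.7 ± 12.4 CPM in control. Lrp1, the endocytic receptor that clears MMP and TIMP complexes, averaged 22.0 ± 12.9 and 7.88 ± 3.12 CPM (SD, n = 4 each). The fold change of Lrp1 came to 1.48 on the log2 scale with an SE of 0.41 (edgeR adjusted p = 0.39). Malonyl-CoA 4 lay highest at 40.7 CPM, against 17.4, 18.8 and 11.1 CPM in malonyl-CoA 1, 3 and 5. The groups overlapped, since malonyl-CoA 5 lay below control 4 at 12.25 CPM.

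Of 15 genes for shed surface proteins 14 were tested, 11 higher and 3 lower, with a median log2 fold change of 0.32 beside 0.02 over all genes. Tnf, the cytokine released by ADAM17, averaged 22.3 ± 2.82 CPM with malonyl-CoA and 8.64 ± 5.46 CPM in control, with no overlap (SD, n = 4 each). The log2 fold change of Tnf was 1.37 with an SE of 0.38 (edgeR adjusted p = 0.391). Csf1r, the M-CSF receptor of monocytes and macrophages, stood at 315 ± 27.8 and 219 ± 16.4 CPM, also without overlap (log2 fold change 0.52, SE 0.11, edgeR adjusted p = 0.352). Of 15 matrix genes 9 were tested, 7 higher and 2 lower, among them the laminin gene Lamc1 at 25.7 ± 5.42 CPM with malonyl-CoA and 17.4 ± 5.13 CPM in control. The fibrillar collagen gene Col3a1 had no read in any library.

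Marker genes of cells that could carry Mmp14 were set beside it. The summed level of 9 monocyte and macrophage markers spanned 1104 to 1316 CPM with malonyl-CoA and 963 to 1357 CPM in control, with 7 markers higher and 2 lower and none under 1 CPM in every library. Within the list the directions differed. Marco, a scavenger receptor of macrophages, averaged 7.99 ± 1.54 CPM with malonyl-CoA and 2.13 ± 0.529 CPM in control (SD, n = 4 each), without overlap. Its log2 fold change of 1.89 (SE 0.23) was close in size to that of Mmp14 and passed in DESeq2 (adjusted p = 2.51e-09) but not in edgeR (adjusted p = 0.146). Fcgr1, an Fc receptor gene, had a log2 fold change of 1.25 (SE 0.34, edgeR adjusted p = 0.368). Ccr2, the most abundant of the 9, had one of -0.26 (SE 0.16), at 525 ± 25.4 CPM with malonyl-CoA and 628 ± 146 CPM in control. Against the sum of the 9 the log2 ratio of Mmp14 was -6.00 ± 0.14 with malonyl-CoA and -8.07 ± 0.72 in control (SD, n = 4 each). Against Csf1r alone it was -4.07 ± 0.27 and -5.68 ± 0.66. Both ratios were added after the values had been seen and contain Mmp14, so their separation repeats the one that chose the genes. The part of monocytes and macrophages in the level of Mmp14 was not tested.

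Stromal and endothelial markers summed to 56.1 to 73.0 CPM with malonyl-CoA and 46.4 to 56.0 CPM in control, without overlap. Of the 13 markers 8 stayed under 1 CPM in every library, among them Col1a1, Pdgfra and Cxcl12, and Col3a1, Dcn and Lum had no read. Pdgfrb, Kdr and Cdh5 carried most of the sum. The part of these cells in the level of Mmp14 was not tested.

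Other markers were summed in the same way. Stem and progenitor markers spanned 1053 to 1110 CPM with malonyl-CoA and 1142 to 1245 CPM in control, with 2 of 7 higher and 5 lower. Mast cell and basophil markers spanned 808 to 934 CPM and 955 to 1153 CPM, with 1 of 7 higher and 6 lower. Neither sum overlapped between the groups. Erythroid markers (19.7 to 24.4 CPM with malonyl-CoA, 22.0 to 25.2 CPM in control), megakaryocyte markers (607 to 955 and 819 to 1008 CPM) and lymphoid markers (91.9 to 129 and 114 to 149 CPM) overlapped.

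Genes with a profile like that of Mmp14 were sought among 10666 genes by Pearson's r of log2 CPM over the 8 libraries, as a description. The closest were Ncf1, a subunit of the phagocyte NADPH oxidase (r = 0.979), the kinase gene Pim1 (0.976), the receptor gene Gpr35 (0.975), the transcription factor gene Tfe3 (0.971) and Ly6i (0.966). Their log2 fold changes ranged from 0.26 for Ncf1 to 1.64 for Ly6i. All 5 lay higher in every malonyl-CoA library than in any control, so their r values repeat in part the separation that chose the genes. With deviations from the group means alone, the closest included Alox12 (0.947), Ifih1 (0.945), Atoh8 (0.935) and Arhgef3 (0.924). In each of these genes control 1 was the lowest library, as it was for Mmp14, so that library weighs in these r values. All genes of a library share its depth and its mixture of cells. By Spearman's rank correlation, 1 of the first 5 genes, Pim1, remained among the closest.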

How the data were processed

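The authors deposited whole-number read counts per gene for 8 RNA libraries. Per the submitters' processing notes, the tools were STAR 2.5.2b, HTSeq 0.6.1 and cutadapt 1.8 and the build GRCm38. For the annotation release and the strand setting, both not given in the sources used here, nothing was assumed. Rows that name no gene were left out of library sizes. As shares of gene counts plus all such rows, reads outside genes came to 1.11% to 2.94% and ambiguous reads to 0.715% to 0.891%. Reads with several positions came to 38.2% to 51.1% of the same total. Of 48709 identifiers 48349 matched GENCODE M21.

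From these counts, genes passing filterByExpr (minimum count 10, minimum total 15) were scaled by TMM and tested with the quasi-likelihood test of edgeR 4.0.16 (robust, two-sided) in R 4.3.3, with Benjamini-Hochberg adjustment over all genes and a threshold of 0.05. Fold changes run malonyl-CoA over control, and standard errors were derived from the F statistic. Levels were TMM CPM divided by the summed exon length. The within-library test used counts plus 0.5. Scripts were checked on simulated data. DESeq2 1.42.0, limma-voom (limma 3.58.1), a replicate block, GC correction (loess), other scalings and filters, and left-out libraries were alternatives. All 28 pairs of libraries differed by more than sampling noise.

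The 10 genes and all lists were chosen with earlier results of these data known. Of each list, up to 4 tested genes with the smallest unadjusted p could be named with their values; genes at 0 and genes of the marker lists were named besides. Of the genes most like Mmp14, 1 is not reported here. As the labels do not say that libraries came from separate animals or cultures, p-values measure only the spread between these libraries, which may be technical. Intervals from counts, such as the limit behind 0 reads (3 counts), cover counting error only.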

Additional observations from a re-analysis of the deposited data

Results flagged for a closer look

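Within groups of 4 libraries, 96 groups of values were examined with Dixon's criterion at its 95% level, and 5 held a library far from the other 3, which is 5.2%; chance gives about 1 in 20. None of the 10 genes was among them. Malonyl-CoA 4 had 20.95 CPM of Adamts10 where the nearest malonyl-CoA library had 9.77. It had 40.8 CPM of Plaur (nearest 57.2), 282.9 CPM of the MMP inducer gene Bsg (nearest 393) and 101.5 CPM of the tetraspanin gene Cd9 (nearest 177.5). Control 4 had 10.9 CPM of Camp, with the nearest control at 18.8.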

How the results depend on the processing

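Of 290 recomputed values, 265 were labelled the same, 13 moved and 12 changed sign. A fold change or ratio was labelled the same if it kept its sign and shifted by less than the pooled SD within groups. A count was labelled the same if it stayed equal or close, such as 4 neighbour pairs in place of 5. The label therefore does not mean that every call was kept. The number of genes past the threshold was 0 with the chosen settings, 1 without a filter on low counts, 82 with DESeq2 (which gave no adjusted p for 7949 genes) and 1210 at an unadjusted p under 0.05. The replicate numbers were not taken as pairs, since the labels do not say what they stand for. The deviations of equally numbered libraries correlated at 0.435, 0.428 and 0.754 for numbers 1, 3 and 4 and at 0.0523 for number 5. Of the 8 libraries, 6 correlated best with their own number. With the replicate block 172 genes passed, and 6 with the block and GC correction. Of the 10 genes, 1 passed with the block and 1 with DESeq2, Mmp14 both times, but 0 with the block and GC correction, and of the list genes 4 and 4 (Csf1r, Icam1, Lrp1 and S100a8 with the block). DESeq2 and the block shared 42 genes. Leaving out libraries gave 0 to 0 genes. Only the 2 values near zero changed sign among the fold changes. Mmp19 came to -0.0796 without malonyl-CoA 4, -0.0102 without control 3 and -0.0431 without malonyl-CoA 4 and control 5, a setting chosen after seeing the data. Timp3 ranged from -0.197 to 0.0507 with libraries left out and came to 0.00868 without malonyl-CoA 4, 0.0386 without control 5, 0.0228 without both libraries numbered 4, 0.0507 without both numbered 5, and 0.13 without malonyl-CoA 4 and control 5. The log2 ratio of Mmp9 to Timp1 (-0.998 over all libraries) ranged from -1.74 to 0.0506 and was 0.0506 without control 3. The log2 ratio of Mmp9 to Mmp8 (-0.155) ranged from -0.715 to 1.0, at 1.0, 0.192 and 0.16 without malonyl-CoA 4, control 1 and control 3. Of the 9 neighbour pairs in the order of levels, 5 differed, among them Mmp14 to Timp1, which contains the gene that chose the set. The number was 2 with the longest transcript and 4 to 5 with a library left out. It was 0 and 0 within malonyl-CoA or control alone, where no pair can pass. The log2 fold change of Adam8 ranged from 0.502 to 1.17 and that of Mmp25 from 0.758 to 1.45. The difference between group means of log2(CPM + 1), another measure, was 0.434 for Mmp25. The causes were not tested. Depth limits Mmp9, Timp1 and Mmp25, with 0 to 28 reads per library.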
